A study of Flaveria robusta and Flaveria sonorensis and Flaveria ramosissima with 24 samples.

Results

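Leaf transcript abundance of the C3-C4 intermediate Flaveria sonorensis was compared with that of the C3 species F. robusta in control air, a comparison between a plant with a partial carbon concentrating leaf and one without. The comparison used 6 of the 24 libraries of the series, 3 of each species. Genes with a mean abundance of 1 TPM or more in at least 1 of the 2 species were taken, which gave 17396 of 29562 rows (58.8%). TPM is transcript abundance corrected for transcript length and scaled to the total of the library, and it is used here as deposited.

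The series covers 4 Flaveria species, each with 3 control and 3 low CO2 libraries. Control air is labelled 380 and low CO2, which lasted 2 weeks, is labelled 100, both in µmol m-2 s-1. That is a unit of light flux, and no source used here says how it was meant for CO2. All groups shared the chamber settings, with 70% humidity, 22 °C, days of 16 h and nights of 8 h, and light at 200 µmol m-2 s-1, and RNA came from mature leaves that had newly expanded. Plant age, the number of plants per library and whether replicates were separate plants are not given, so the p-values below measure only the spread between these libraries. In whole leaf RNA, fewer cells of a type and less RNA per cell cannot be told apart.

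In a C3 leaf, Rubisco also takes up oxygen, and the product is recycled in photorespiration, a pathway in which glycine decarboxylase of the mitochondria releases CO2. C3-C4 intermediates confine most glycine decarboxylase activity to the bundle sheath around the veins, so that glycine moves there and the released CO2 can be fixed again. Flaveria is a model genus for this transition because it also holds C4 species, such as F. trinervia. The deposited rows carry a row number and no gene name, so pathway members, leaf markers and the labelled tissue could not be checked by name. Genes are described below by rank, level and pattern, and 4 are given by row number.

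The libraries of each species resembled each other far more than those of the other species. Across the 17396 genes, Spearman correlations of log2(TPM + 1) lay between 0.962 and 0.984 within species and between 0.484 and 0.495 between species. Over the 11417 genes with a mean of 1 TPM or more in both species, the values were 0.945 to 0.982 and 0.719 to 0.743. These are correlations across genes, which are not independent replicates. The first principal component of all 17396 genes held 93.6% of the variance. Rows that passed the minimum through 1 species alone are among them and enlarge this share, and it was not computed without them.

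The most abundant genes took a smaller share of the listed TPM of each F. sonorensis library. Of the 100 most abundant genes of F. robusta, 16 were listed at 0 in F. sonorensis, and 12 of the 100 of F. sonorensis were at 0 in F. robusta. Listed TPM added up to 858442 ± 701 per F. sonorensis library and 915186 ± 1117 per F. robusta library (SD, n = 3). What part these gaps have in the shares was not tested. The 100 most abundant genes of a library held 36.7%, 45.0% and 44.0% of its TPM in F. sonorensis and 53.8%, 53.5% and 54.6% in F. robusta, and the groups did not overlap. For the 10 most abundant genes the shares were 17.8 ± 2.26% (SD, n = 3) and 23.2 ± 0.700% (SD, n = 3). Genes at 100 TPM or more numbered 1190 ± 103 in F. sonorensis and 964 ± 14.3 in F. robusta (SD, n = 3). Each of these differences gave p = 0.1 in a two-sided exact permutation test, the smallest value that 3 libraries against 3 allow. Genes at 1 TPM or more numbered 14545, 14201 and 14425 in F. sonorensis and 14110, 14014 and 14310 in F. robusta. These groups overlapped (exact permutation test, p = 0.2). Counts above 100 or 1 TPM depend on how libraries are scaled, and they were made on deposited TPM alone.

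Most genes tested were called different between the species, and the balance of directions depended on how the libraries were scaled. With deposited TPM, limma on log2(TPM + 1) called 12990 of 17396 genes (74.7%) at a Benjamini-Hochberg adjusted p below 0.05, of which 8486 (48.8%) were higher and 4504 (25.9%) lower in F. sonorensis. The lower genes include 2398 rows listed at 0 in all 3 F. sonorensis libraries and the higher genes 1727 listed at 0 in all 3 of F. robusta. These rows passed the minimum only through the species where they are high. Counting also rows not at 0, 2856 of the genes tested reached 1 TPM in F. robusta alone and 3123 in F. sonorensis alone. Passing through 1 species favours a call. Of the 11417 genes at a mean of 1 TPM or more in both, 64% were called. When libraries were scaled by the median of ratios, which sets the typical gene to no difference, 12043 (69.2%) were called, 5670 (32.6%) higher and 6373 (36.6%) lower. The median log2 difference was 0.51 with deposited TPM and -0.038 after scaling, and the size factors were 1.42, 1.15 and 1.22 for the F. sonorensis libraries and 0.792, 0.819 and 0.820 for those of F. robusta. A direction below is therefore relative to this shift. The same direction was called under both scalings for 10174 genes. The libraries of both species did not overlap for 8929 genes that were higher (51.3%) and 4673 that were lower (26.9%). The genes that reached 1 TPM in 1 species alone are among those tested here too, which favours groups without overlap.

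**Figure D1:**
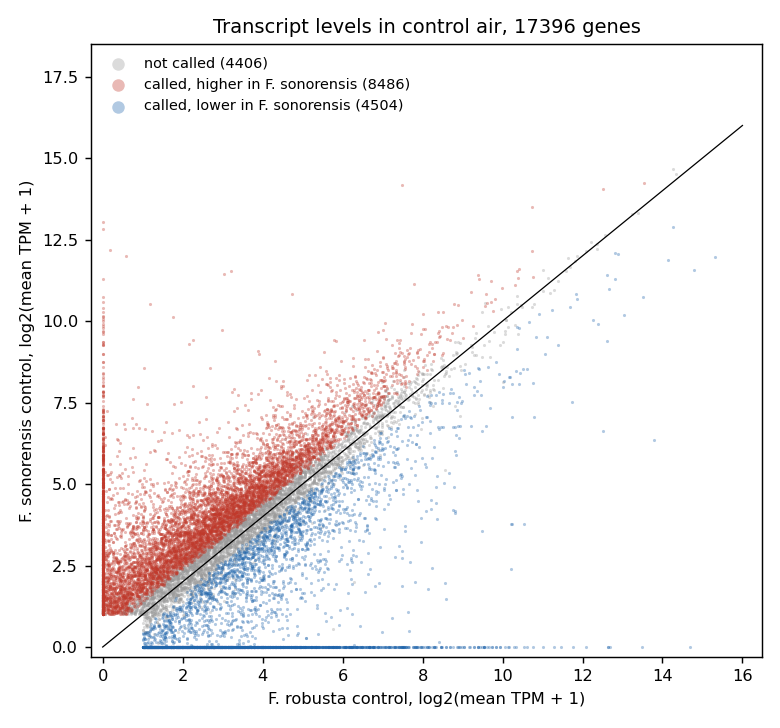
Mean transcript level of 17396 genes in control air, F. robusta on the x axis and F. sonorensis on the y axis, both as log2(mean TPM + 1), with 1 point per gene, coloured by the limma call on deposited TPM. The 8486 genes called higher lie above the line of equal level and the 4504 called lower lie below it, and many of both kinds lie on an axis because the row is listed at 0 in the other species.

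Both species had the transcript of most genes tested. Of the 11417 genes at a mean of 1 TPM or more in both, 7312 (64%) were called, with 5548 (48.6%) higher and 1764 (15.5%) lower. After median-of-ratios scaling 6524 (57.1%) were called, 2933 (25.7%) higher and 3591 (31.5%) lower, so the larger side turned. Exactly 4697 genes kept their direction under both scalings and 0 were called in opposite directions. A further 2615 genes were higher with deposited TPM alone, and 1827 were lower after scaling alone.

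Large differences were less common than differences as such. The middle of the distribution over these 11417 genes ran from a lower quartile of -0.16 to an upper quartile of 1.09 on the log2 scale, and from -0.71 to 0.53 after scaling. At least 2-fold differences were called for 3181 higher and 1001 lower genes, at least 4-fold for 777 and 365, at least 8-fold for 180 and 122, and at least 16-fold for 55 and 43. After scaling, the corresponding counts were 1409 and 2006, 341 and 630, 89 and 223, and 30 and 76. For 3817 genes (33.4%) the 95% interval of the difference lay within 2-fold in either direction, and after scaling this held for 4948 (43.3%).

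**Figure D2:**
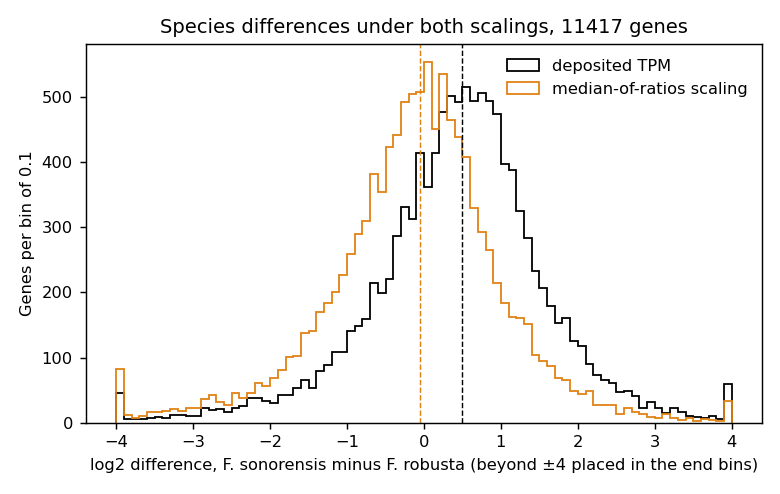
Distribution of the log2 difference, F. sonorensis minus F. robusta, over the 11417 genes at a mean of 1 TPM or more in both species, as genes per bin of 0.1, with values beyond 4 in either direction placed in the end bins. Dashed lines mark the medians, 0.50 with deposited TPM (black) and -0.058 after median-of-ratios scaling (orange).

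Among these 11417 genes, the share called was lowest in the weakest of 4 abundance classes. With a mean of 1 to 5 TPM over the 6 libraries, 49.9% of 2312 were called. The share was 67.0% of 4782 genes at 5 to 20 TPM, 69.0% of 3343 at 20 to 100 TPM and 66.3% of 980 at 100 TPM or more. Over all 17396 genes the order was the reverse, from 75.6% of 5379 genes at 1 to 5 TPM to 70.3% of 1111 at 100 TPM or more, and 89.0% of 1326 genes under 1 TPM were called. Every gene in that last class passed the minimum through 1 species alone, since a mean under 1 TPM leaves the other species below 1 TPM. The other classes include such genes too. Passing in this way favours a call, so the order over all genes depends on the minimum. The median replicate SD on the log2 scale was 0.185 in F. robusta and 0.245 in F. sonorensis.

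Many rows were listed at 0 in 1 species and well above 1 TPM in the other. All 3 F. sonorensis libraries were at 0 for 2442 rows (14.0% of those tested), and all 3 F. robusta libraries for 1752 (10.1%). The level in the species that had the transcript was modest for most of them, with a median of 5.57 TPM in F. robusta and 4.35 TPM in F. sonorensis. It reached 100 TPM or more in 156 rows of F. robusta and in 72 of F. sonorensis. No fold is given for these rows, because a 0 in such a table can be a failed estimate.

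The zeros recurred in the other libraries of a species. Of the 2442 rows at 0 in F. sonorensis, 2426 were also at 0 in its 3 low CO2 libraries, and the highest value among the others was 1.77 TPM. Of the 1752 rows at 0 in F. robusta, 1688 were again at 0, with a highest value of 2.31 TPM among the others. Transcripts of 1697 of the 2442 rows (69.5%) had a mean of 1 TPM or more in control air in F. ramosissima, the other C3-C4 intermediate, or in the C4 species F. trinervia. The same held for 992 of the 1752 rows (56.6%). Rows at 0 in 1 species with a mean of 10 TPM or more in each of the other 3 numbered 215 for F. sonorensis, 79 for F. robusta, 33 for F. ramosissima and 65 for F. trinervia. In the same order, 12993, 11120, 4978 and 11138 rows were at 0 in all 3 control libraries of the species, so these counts have unlike bases. Whether such a 0 lies in the plant or in the reference used for it cannot be told apart here.

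These rows carried a sizeable part of the transcript pool. Rows at 0 in F. sonorensis held 15.8%, 16.7% and 16.4% of the TPM of the F. robusta libraries. Rows at 0 in F. robusta held 6.84%, 7.76% and 7.65% of the TPM of the F. sonorensis libraries. Genes at 1 TPM or more in both held 83.2 ± 0.452% in F. robusta and 90.4 ± 0.508% in F. sonorensis (SD, n = 3).

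**Figure D3:**
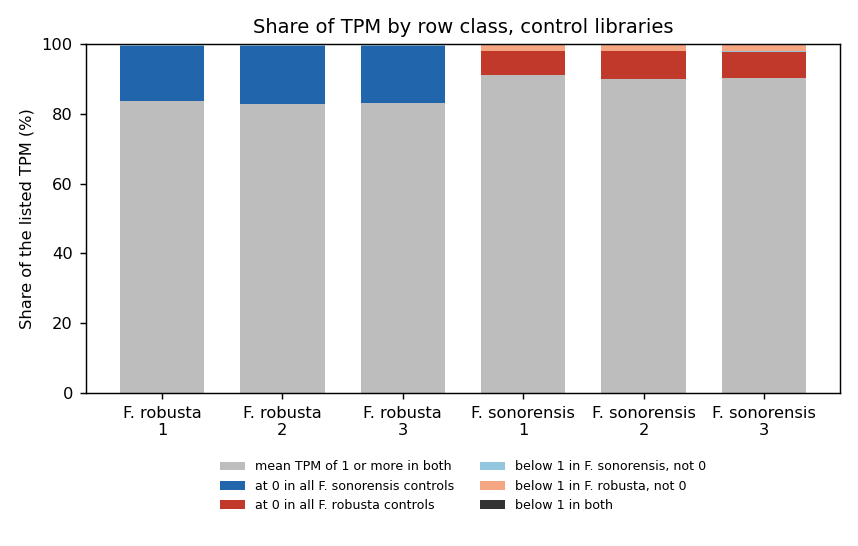
Share of the listed TPM (%) of each control library held by rows of each class, with 1 bar per library and bars starting at 0. Rows at 0 in all F. sonorensis controls (dark blue) hold 15.8% to 16.7% of the F. robusta bars, and rows at 0 in all F. robusta controls (red) hold 6.84% to 7.76% of the F. sonorensis bars.

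The most abundant row listed at 0 in F. sonorensis was the third most abundant transcript of F. robusta. It stood at 22890, 28476 and 28081 TPM in the F. robusta libraries and at 0 in all 3 of F. sonorensis, with means of 4004 TPM in F. ramosissima and 12655 TPM in F. trinervia. The next such row stood at 10883, 11627 and 11881 TPM in F. robusta and at 5212 TPM in F. ramosissima, but at 0.877 TPM in F. trinervia. The fourth was at 6425 TPM in F. robusta, 8360 TPM in F. ramosissima and 12998 TPM in F. trinervia, so that among the 4 species F. sonorensis alone was listed at 0. The same held for the other rows among the 10 most abundant of this kind, except the fifth, which was also at 0 in F. trinervia.

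In the opposite direction, the most abundant row at 0 in F. robusta was the ninth most abundant of F. sonorensis. It stood at 5634, 9687 and 10018 TPM in the F. sonorensis libraries and at 0 in all 3 of F. robusta, with means of 1255 TPM in F. ramosissima and 66.4 TPM in F. trinervia. The second stood at 7312 TPM in F. sonorensis, 9.03 TPM in F. ramosissima and 287 TPM in F. trinervia. The 10 most abundant rows of this kind ran from 1069 to 8446 TPM in F. sonorensis, and the 10 that were at 0 in F. sonorensis ran from 2052 to 26483 TPM in F. robusta, so the ranges overlapped.

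The abundant leaf transcripts were only partly the same in both species. The lists of the 100 most abundant genes shared 55 members, 55% of each list, and the lists of 1000 shared 610 (61%). Of the 100 most abundant genes of F. robusta, 16 were at 0 in F. sonorensis, and of the 84 at 1 TPM or more in both, 45 were lower and 9 higher in F. sonorensis (58 and 3 after scaling). Of the 100 of F. sonorensis, 12 were at 0 in F. robusta, and of the 86 at 1 TPM or more in both, 34 were higher and 19 lower (20 and 32 after scaling). A list picked for its level in 1 species leans towards being higher there, so these counts describe the lists and test nothing.

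The heads of both lists show how different the leading transcripts were. The 10 most abundant genes of F. robusta held 23.0% of its TPM and 10.4% of that of F. sonorensis, and 4 of them were also among the 10 of F. sonorensis. The 10 of F. sonorensis held 17.8% of its TPM and 10.9% of that of F. robusta.

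Among the leading genes of F. robusta, the first was also the gene with the largest TPM difference among lower genes. Gene14178 stood at 35636, 40154 and 45810 TPM in F. robusta and at 2743, 4829 and 4485 TPM in F. sonorensis, where it ranked 23. Every F. robusta library was above every F. sonorensis library. The means, 40534 ± 5098 and 4019 ± 1119 TPM (SD, n = 3), differed 10.1-fold, and the log2 difference was -3.37 (SE 0.259, limma adjusted p = 2.70e-05). F. ramosissima (22738 ± 2614 TPM) and F. trinervia (21426 ± 2643 TPM) lay between them, so F. sonorensis had the lowest mean of the 4 species.

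The second gene of F. robusta had a like pattern, at 25388, 28355 and 30598 TPM against 2010, 3212 and 3897 TPM in F. sonorensis, a log2 difference of -3.26. The eighth differed most among these 10 apart from the row at 0. It stood at 15673, 12724 and 13794 TPM in F. robusta and at 66.9, 89.4 and 85.8 TPM in F. sonorensis, a log2 difference of -7.43 (limma adjusted p = 1.19e-07), while F. ramosissima had 26849 TPM and F. trinervia 7191 TPM. Both intermediates therefore lay on opposite sides of F. robusta for this transcript.

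The 3 most abundant genes of F. sonorensis were also among the 10 of F. robusta. The most abundant gene of F. sonorensis, the sixth of F. robusta, stood at 20984, 30294 and 27391 TPM against 21276, 16622 and 20967 TPM in F. robusta, and the log2 difference of 0.41 (95% interval -0.10 to 0.92) was not called (limma adjusted p = 0.123). The second gene of F. sonorensis stood at 18987, 25581 and 26217 TPM against 24555, 22746 and 15340 TPM, with a log2 difference of 0.19 (95% interval -0.41 to 0.79, limma adjusted p = 0.511). The libraries overlapped for both genes. The third, at 16363, 22341 and 19525 TPM against 12127, 10830 and 12474 TPM, did not overlap and was called with a log2 difference of 0.71 (limma adjusted p = 0.0115), but the value was 0.074 after median-of-ratios scaling and was not called there.

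The fourth most abundant gene of F. sonorensis had the largest difference in TPM of all genes that were higher. Gene02962 stood at 21223, 17292 and 17287 TPM in F. sonorensis and at 284, 150 and 102 TPM in F. robusta, where it ranked 522. The libraries were far apart. The means, 18600 ± 2271 and 178 ± 94.2 TPM (SD, n = 3), differed 104-fold, with a log2 difference of 6.82 (SE 0.361, limma adjusted p = 3.89e-06). The transcript was listed at 0 in all 3 F. ramosissima libraries and stood at 6561 ± 1782 TPM in F. trinervia. The sixth gene of F. sonorensis was also at 0 in F. ramosissima, and stood at 9025, 13272 and 12635 TPM against 1489, 1712 and 1876 TPM in F. robusta, a log2 difference of 2.77.

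The largest log2 difference among higher genes belonged to Gene09658. It was at the low end in F. robusta, at 0.26, 0.82 and 2.70 TPM, and stood at 1212, 1868 and 1302 TPM in F. sonorensis, where it ranked 66. The log2 difference was 9.46 (SE 0.397, limma adjusted p = 1.23e-06), a value that depends on the pseudocount of 1 because the F. robusta level is so low. Its level was 153 ± 53.5 TPM in F. ramosissima and 2268 ± 206 TPM in F. trinervia (SD, n = 3), so F. robusta had the lowest mean of the 4 species.

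The largest log2 difference among lower genes belonged to Gene25080. It stood at 1150, 1141 and 1282 TPM in F. robusta, rank 94, and at 6.22, 4.0 and 2.54 TPM in F. sonorensis. The log2 difference was -7.88 (SE 0.259, limma adjusted p = 4.08e-07). The transcript was also low in the other species, at 1.68 TPM in F. ramosissima and 0.167 TPM in F. trinervia, so that F. robusta alone had it above 10 TPM.

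**Figure D4:**
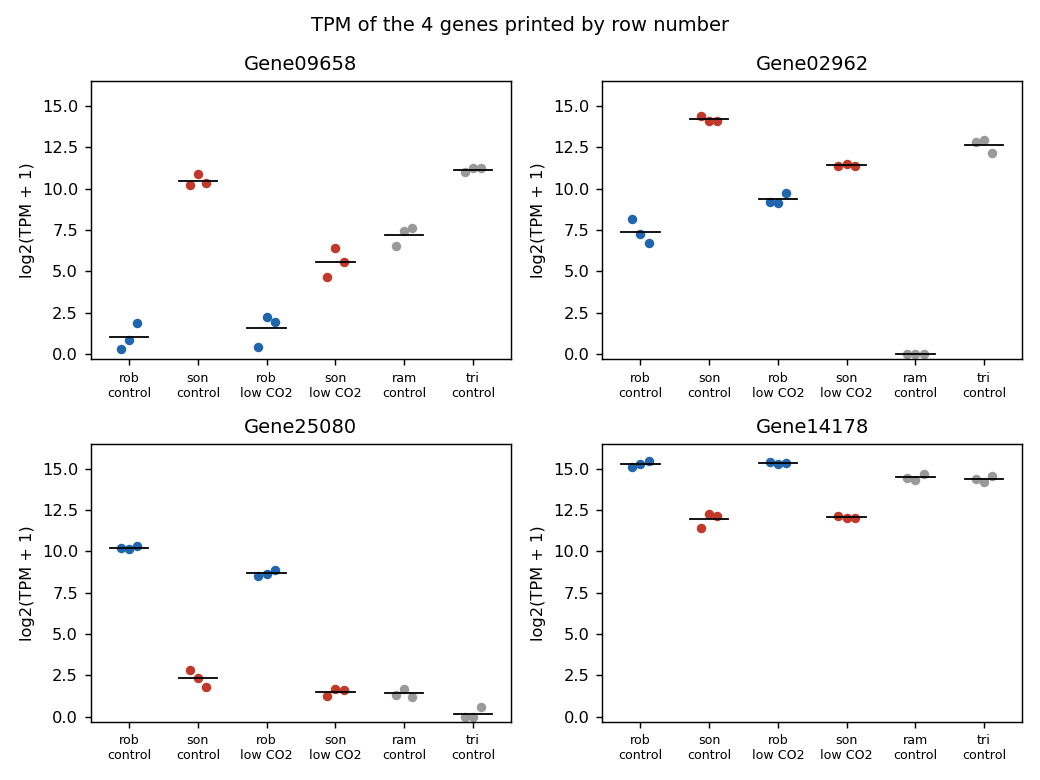
Level of the 4 genes given by row number as log2(TPM + 1), with 1 point per library and a bar at the mean of each group, for F. robusta (rob) and F. sonorensis (son) in control air and at low CO2 and for the F. ramosissima (ram) and F. trinervia (tri) controls. Gene09658 and Gene02962 are higher in F. sonorensis than in F. robusta by 9.46 and 6.82 in control air and by 4.003 and 2.04 at low CO2, while Gene25080 and Gene14178 are lower at both.

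The 10 genes with the largest called difference in each direction, among those at 1 TPM or more in both species, ran from 6.36 to 9.46 on the log2 scale for higher genes and from -7.88 to -6.05 for lower genes. Under median-of-ratios scaling the ranges were 5.87 to 8.99 and -8.45 to -6.64. In the low CO2 libraries, all 10 of each list were called in the same direction, with differences of 2.04 to 8.75 and -8.21 to -3.92. Of all called genes at 1 TPM or more in both species, 86.1% of the higher and 56.6% of the lower were called so again. The lists were picked for the largest differences, so their count describes them and tests nothing.

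The 5548 genes that were higher in F. sonorensis, of those at 1 TPM or more in both, had a median level of 7.60 TPM in F. robusta, 20.5 TPM in F. sonorensis, 5.56 TPM in F. ramosissima and 9.80 TPM in F. trinervia. The 1764 lower genes had medians of 22.9, 7.99, 5.10 and 9.04 TPM in the same order. Over all 11417 genes the medians were 10.2, 14.8, 5.01 and 9.01 TPM. No test was made across these species, because the comparisons would share control libraries.

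The low CO2 libraries gave the same species comparison in samples that the control comparison did not use. There, 13554 of 16770 genes tested (80.8%) were called, 9432 (56.2%) higher and 4122 (24.6%) lower. After scaling 12179 (72.6%) were called, 5823 (34.7%) higher and 6356 (37.9%) lower. A call in the same direction in both air settings was found for 10352 genes, which is 79.7% of the control calls and 76.4% of the low CO2 calls. Both comparisons use the same rows and references, so a row that differs between species for that reason would be called in both.

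Most genes of either direction were called again at low CO2. Of the 8486 genes higher in control air, 7153 (84.3%) were also called higher at low CO2 and 103 were called lower. Of the 4504 lower genes, 3199 (71.0%) were called lower again and 183 higher. With genes at 1 TPM or more in both species alone, 4779 of 5548 (86.1%) and 999 of 1764 (56.6%) recurred. The median of the lower genes went from -1.12 in control air to -0.63 at low CO2, and that of the higher genes from 1.11 to 1.18. The genes were picked by their call in control air, which favours a smaller difference in other libraries in either direction. Over all genes tested, the shift of the median between the species was 0.65 at low CO2 against 0.51 in control air. Its part in these shares and medians was not tested.

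**Figure D5:**
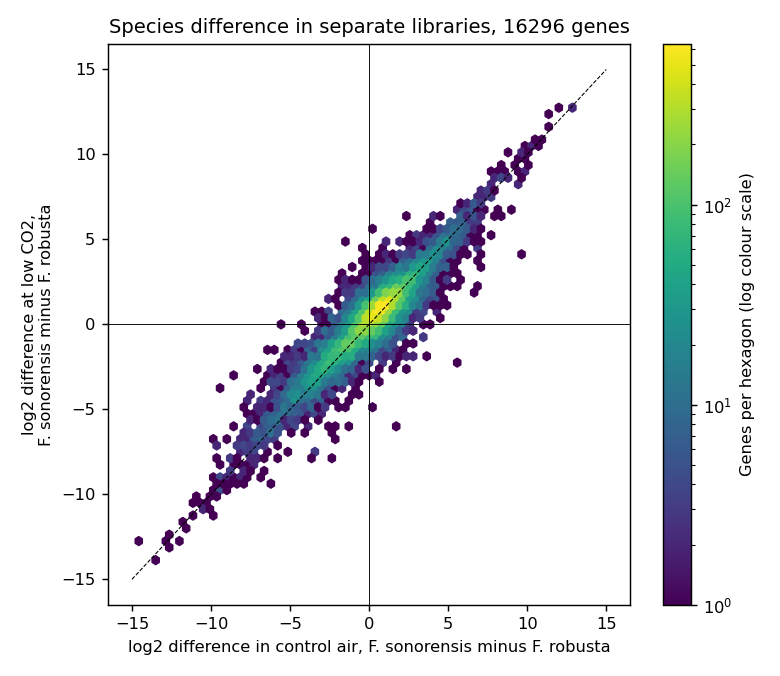
Log2 difference, F. sonorensis minus F. robusta, in control air (x axis) and at low CO2 (y axis), each from its own 6 libraries, over the 16296 genes tested in both. Colour gives the genes per hexagon on a log scale, the dashed line marks equal differences, and Pearson's r is 0.918 over these genes and 0.747 over the 11334 of them at 1 TPM or more in both species in control air, both descriptions across genes that share references and rows.

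The species difference itself differed between the air settings for a smaller set of genes. In 1 limma fit over the 12 libraries of both species, the difference at low CO2 minus that in control air was called for 4742 of 17870 genes (26.5%), 3139 of them positive (17.6%) and 1603 negative (8.97%). After scaling, 4467 (25%) were called, 2255 positive (12.6%) and 2212 negative (12.4%). Of the 4742 genes, 3683 were also called in control air. The control difference enters both calls, so a smaller difference at low CO2 is favoured among these genes and no count of it is given.

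Gene02962 and Gene09658, which were picked for their difference in control air, were among these genes. At low CO2, Gene02962 stood at 2644, 2871 and 2625 TPM in F. sonorensis and at 575, 567 and 867 TPM in F. robusta, still without overlap, with a log2 difference of 2.04 (limma adjusted p = 4.78e-05). Gene09658 stood at 23.8, 85.4 and 47.2 TPM in F. sonorensis and at 0.35, 3.76 and 2.90 TPM in F. robusta, a log2 difference of 4.003 (limma adjusted p = 0.000679). Both lower genes kept their difference at low CO2. The log2 difference at low CO2 was -7.16 for Gene25080 and -3.29 for Gene14178, and the change from control air was not called for either (limma adjusted p = 0.114 and 0.864).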

How the data were processed

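RNA from newly expanded mature leaves of 2 Flaveria species in control air was compared, 3 libraries each, with their 6 low CO2 libraries as separate samples. The authors deposited TPM, 1 table of 29562 rows and 24 columns, made from Illumina paired reads of 150 bp. RSEM and edgeR stand in the submitters' processing notes without role or version. No source used here gives the aligner, the reference of each species or how rows were matched across species. Deposited TPM added up to 858442 ± 701 per F. sonorensis library and 915186 ± 1117 per F. robusta library (SD, n = 3), so part of each library lies outside these rows. TPM keeps no depth, so counting error is unknown.

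Genes at a mean of 1 TPM or more in at least 1 group were tested on log2(TPM + 1) with limma 3.58.1 (lmFit, eBayes with trend) in R 4.3.3. Differences on this scale are understated for genes with low TPM. Rows just inside the minimum (larger group mean 1 to 1.1) numbered 239 and just outside (0.9 to 1) 192. Values per library were compared with scipy 1.17.1, and matplotlib 3.10.9 (Python 3.11.15) drew the plots. Members, lists and tests were chosen with earlier results of these data known.

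In each direction, the genes given by row number are those with the largest log2 difference and with the largest TPM difference, among called genes without overlap and at 1 TPM or more in both species. Further genes are described by rank. At most 0.0960% of genes at 10 TPM or more had identical TPM in a pair of replicates, so none was treated as a copy.

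Simulated data with 100 planted changes of each size were used to test the fit. For the control comparison (17395 genes), 33% of log2 changes of 1 and 79% of 2 were recovered, and 8.20% of calls were false. That false share lay above the adjusted p limit of 0.05. Few genes were changed in the simulation, whereas 74.7% were called in the data, so these rates need not carry over to the data. Alternatives were median-of-ratios scaling, quantile normalization, other pseudocounts and minimums, other priors, a replicate block and leaving out each library.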

Additional observations from a re-analysis of the deposited data

Results flagged for a closer look

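The species difference at low CO2 differed from that in control air, by the interaction term of a limma fit over 12 libraries, for 4742 genes. For Gene09658 this change was -5.46 on the log2 scale (limma adjusted p = 0.000719), since its F. sonorensis mean was 1461 ± 356 TPM in control air and 52.1 ± 31.1 TPM at low CO2 (SD, n = 3). For Gene02962 the change was -4.77 (limma adjusted p = 5.8e-05), with F. sonorensis means of 18600 ± 2271 TPM and 2713 ± 137 TPM and F. robusta means of 178 ± 94.2 TPM and 670 ± 171 TPM (SD, n = 3). Both genes were picked for their large difference in control air. That difference enters the change, so a smaller difference at low CO2 was favoured by the choice, and these p-values do not allow for it.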

How the results depend on the processing

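All 4 genes given by row number kept their call and direction under 18 alternatives in both air settings. They were picked for the largest called differences in control air, so this outcome was favoured there and says little about other genes. The median log2 difference in control air was -0.038 under median-of-ratios scaling, 0.22 after quantile normalization, 0.58 with a pseudocount of 0.1 and 0.32 with no filter. At low CO2, median-of-ratios scaling left 5823 genes higher and 6356 lower, and a minimum of 5 TPM left 2529 lower there. A minimum of 1 TPM in every group gave 7121 called genes in control air (5405 higher, 1716 lower), 7877 at low CO2 (1507 lower) and 2604 for the change between air settings (1820 positive, 784 negative), with 5205 in the same direction in both. Leaving out rows at 0 in all 3 libraries of a group, chosen after the data were seen, gave 2074 lower genes and a median of 0.57 in control air, 1922 lower genes at low CO2, 3036 for the change (2011 positive, 1025 negative) and 6728 in the same direction in both. Both settings test fewer genes by construction. The difference in genes detected, 246 at 1 TPM, was -142 at 0.5 TPM and 910 at 5 TPM. The cause of the other shifts was not tested.

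Leaving out each library in turn gave 11598 to 12787 called genes in control air (7427 to 8399 higher, 4160 to 4717 lower, median 0.43 to 0.56), 12712 to 13451 at low CO2 (8911 to 9250 higher, 3801 to 4201 lower), 3364 to 5402 for the change (2265 to 3785 positive, 1097 to 1847 negative) and 9471 to 10232 in the same direction in both. The difference in genes detected was 168 to 340, that in the share of the 10 most abundant genes -6.16 to -4.05 percentage points and that of the 100 most abundant -13.6 to -9.41.

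The deviations of same-numbered control libraries of both species correlated at 0.0024, -0.086 and -0.16. Between control and low CO2, same-numbered libraries correlated at 0.27, -0.34 and 0.30 in F. robusta and at 0.024, -0.18 and -0.068 in F. sonorensis. Differently numbered F. robusta libraries reached 0.41 and -0.48. Replicate numbers thus showed no steady pairing, but so few values cannot exclude shared material. The fit with a replicate block called 12587 genes in control air, 13415 at low CO2 and 4143 for the change.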

Other observations

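The order of rows in the table was compared with the outcome, since row numbers were the sole annotation used here. In 10 blocks of equal size by row order, the share of rows tested ran from 78.4% in the first block to 40.7% in the last. Among genes at 1 TPM or more in both species, which leaves such rows out, the share called ran from 61.3% to 67.2% across the blocks.

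Genes called higher held 16.3 ± 0.321% of the TPM of F. robusta and 56.4 ± 0.456% of that of F. sonorensis, and genes called lower held 54.6 ± 0.648% and 10.7 ± 0.508% (SD, n = 3). These shares follow from the choice of the genes and are given as a description.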
